A study of Mus musculus with 6 samples.

Results

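The widest step of Nodal/Activin signaling in this experiment lies between mouse E14 TG2A embryonic stem (ES) cells held in Activin and the same cells held in SB-431542 (SB). SB is a small molecule that blocks the kinase activity of the type I receptors for Nodal, Activin and TGF-beta. Binding of phosphorylated Smad2 (pSmad2) to the genome was measured by ChIP-Seq, in which DNA bound by a protein is pulled down with an antibody and the ends of its fragments are sequenced as short tags. All cells were first kept for 6 h in 10 uM SB in medium with 20% knockout serum replacement (KSR), and then for 18 h in 25 ng/ml Activin, in DMSO diluted 1/5000 as the vehicle control, or in 10 uM SB. Of the 6 libraries of the series, the comparison uses the 2 ChIP libraries of the Activin and SB cultures, and the DMSO ChIP library and the 3 input libraries, made from chromatin that did not pass the antibody, are set beside them. There is 1 ChIP library per treatment and no replicate check, so each test below compares libraries and covers counting error only.

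Nodal and Activin bind type I and type II receptors, which phosphorylate Smad2 and Smad3. The phosphorylated Smads join Smad4, enter the nucleus and bind DNA at short CAGA-type sequences, often beside the forkhead protein FoxH1. In the early embryo high signaling favours mesendoderm, the source of mesoderm and endoderm, and the pathway holds itself in check by inducing its own inhibitors, among them the extracellular antagonists Lefty1 and Lefty2 and the intracellular inhibitor Smad7.

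The members are all places that the authors listed as peaks in Activin or in SB. The Activin list holds 5094 peaks and the SB list 4759, each given as a position with a tag number. This SB list is shorter than the number of SB peaks that the paper reports. An Activin position was taken as the centre of an interval of 833 bp and an SB position as the end of an interval of 1110 bp, and overlapping intervals were merged. This gave 8402 regions on the mouse assembly mm9, with a median width of 1110 bp and 8.71 Mb in all. Of these, 3769 came from the Activin list only, 3417 from the SB list only and 1216 from both. Tags with the same position and strand were counted once unless stated otherwise, and levels are tags per 10000000 tags of that library outside the regions. A region was called where the levels differed at least 2-fold and the two-sided exact binomial test gave an adjusted p (Benjamini-Hochberg, over all regions) under 0.05.

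The ChIP libraries held 10537724 such tags with Activin, 9713869 with DMSO and 7805150 with SB, and the inputs between 9786787 and 11913742. Regions took 2.00% of the Activin, 2.01% of the DMSO and 2.44% of the SB ChIP tags, and between 0.806% and 0.920% of the input tags. Between the Activin and SB inputs, the same test called 7 of the 8402 regions (0.0833%).

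The DNA under the highest pileup is given first, since the letters shared by these places are described further below. The 6 sequences that follow come from the Activin end of the range, 201 bp each around the highest pileup, on the plus strand of mm9. Capitals mark CAGAC, the Smad-binding letters, and TGTNNATT, the letters of the FoxH1 site, on either strand.
Lefty2 upstream, chr1:182818932-182819132: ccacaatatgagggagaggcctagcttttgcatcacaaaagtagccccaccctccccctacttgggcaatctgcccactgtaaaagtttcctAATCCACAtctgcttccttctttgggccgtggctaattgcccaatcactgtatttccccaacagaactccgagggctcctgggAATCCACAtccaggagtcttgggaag
Lefty1 upstream, chr1:182854910-182855110: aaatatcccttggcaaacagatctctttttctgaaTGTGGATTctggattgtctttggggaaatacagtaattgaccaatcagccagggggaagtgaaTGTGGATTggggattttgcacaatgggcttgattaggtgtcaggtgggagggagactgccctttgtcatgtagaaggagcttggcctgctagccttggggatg
Lefty1 near start, chr1:182863942-182864142: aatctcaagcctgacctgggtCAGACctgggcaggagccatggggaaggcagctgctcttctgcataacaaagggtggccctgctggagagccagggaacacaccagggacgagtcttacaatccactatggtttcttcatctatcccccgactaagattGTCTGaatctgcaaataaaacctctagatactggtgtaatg
Ccrl1 and Acad11 introns, chr9:104021017-104021217: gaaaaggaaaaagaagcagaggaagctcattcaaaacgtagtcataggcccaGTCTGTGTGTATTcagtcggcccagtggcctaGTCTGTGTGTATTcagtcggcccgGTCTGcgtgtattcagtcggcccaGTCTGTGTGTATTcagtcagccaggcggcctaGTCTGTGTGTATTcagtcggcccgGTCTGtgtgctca
Radil intron, chr5:143022497-143022697: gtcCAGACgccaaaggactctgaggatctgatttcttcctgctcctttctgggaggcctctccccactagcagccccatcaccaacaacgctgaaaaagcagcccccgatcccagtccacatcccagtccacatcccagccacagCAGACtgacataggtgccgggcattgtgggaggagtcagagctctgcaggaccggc
Pkdcc upstream, chr17:83566057-83566257: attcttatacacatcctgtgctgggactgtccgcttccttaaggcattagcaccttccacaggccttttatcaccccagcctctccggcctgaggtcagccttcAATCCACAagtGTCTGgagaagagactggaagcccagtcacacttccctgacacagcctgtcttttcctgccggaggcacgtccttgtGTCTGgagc

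A further 3 sequences come from the SB end, with the same capitals. The first was the tallest SB-end place, the second is GC-rich, and the third is a place without a tag in Activin.
Id4 upstream, chr13:48323149-48323349: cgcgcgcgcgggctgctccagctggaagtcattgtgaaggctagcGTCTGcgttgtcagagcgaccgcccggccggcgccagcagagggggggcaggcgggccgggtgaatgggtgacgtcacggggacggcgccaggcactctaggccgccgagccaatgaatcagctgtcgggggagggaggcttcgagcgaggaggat
Prdm13 upstream, chr4:21616170-21616370: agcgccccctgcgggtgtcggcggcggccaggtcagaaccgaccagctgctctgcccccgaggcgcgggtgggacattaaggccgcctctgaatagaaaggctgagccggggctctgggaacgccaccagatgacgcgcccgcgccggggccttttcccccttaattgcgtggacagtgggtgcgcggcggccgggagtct
Kif4-ps upstream, chr12:102353702-102353902: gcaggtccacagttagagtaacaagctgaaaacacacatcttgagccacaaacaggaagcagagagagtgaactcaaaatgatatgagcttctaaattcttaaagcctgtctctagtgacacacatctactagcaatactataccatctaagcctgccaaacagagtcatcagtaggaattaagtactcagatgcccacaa

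At the Activin end, Lefty1 and Lefty2, neighbouring genes for secreted Nodal antagonists, had 3 of the 12 places ranked first by the lower bound of their ratio. Upstream of Lefty2 (chr1:182818617-182819449), 4.2 kb before its start, there were 426 tags with Activin, 268 with DMSO and 15 with SB, beside 17, 12 and 10 in the inputs. The Activin level of 413 was 20.9 times the SB level of 19.7 (95% Clopper-Pearson interval 12.6 to 37.7, adjusted p = 8.19e-77 by the exact binomial test). The site 10.1 kb upstream of Lefty1 (chr1:182854598-182855430) had 385, 270 and 25 ChIP tags, a ratio of 11.4 (7.58 to 17.8). Closer to Lefty1, 1.1 kb before its start, a region present in both lists (chr1:182863592-182865186) had 297, 199 and 31 tags and a ratio of 7.06 (4.87 to 10.6). All 3 Lefty sites therefore kept the order Activin, DMSO, SB, and the SB tags exceeded the SB input tags of 10, 11 and 19.

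**Figure D1:**
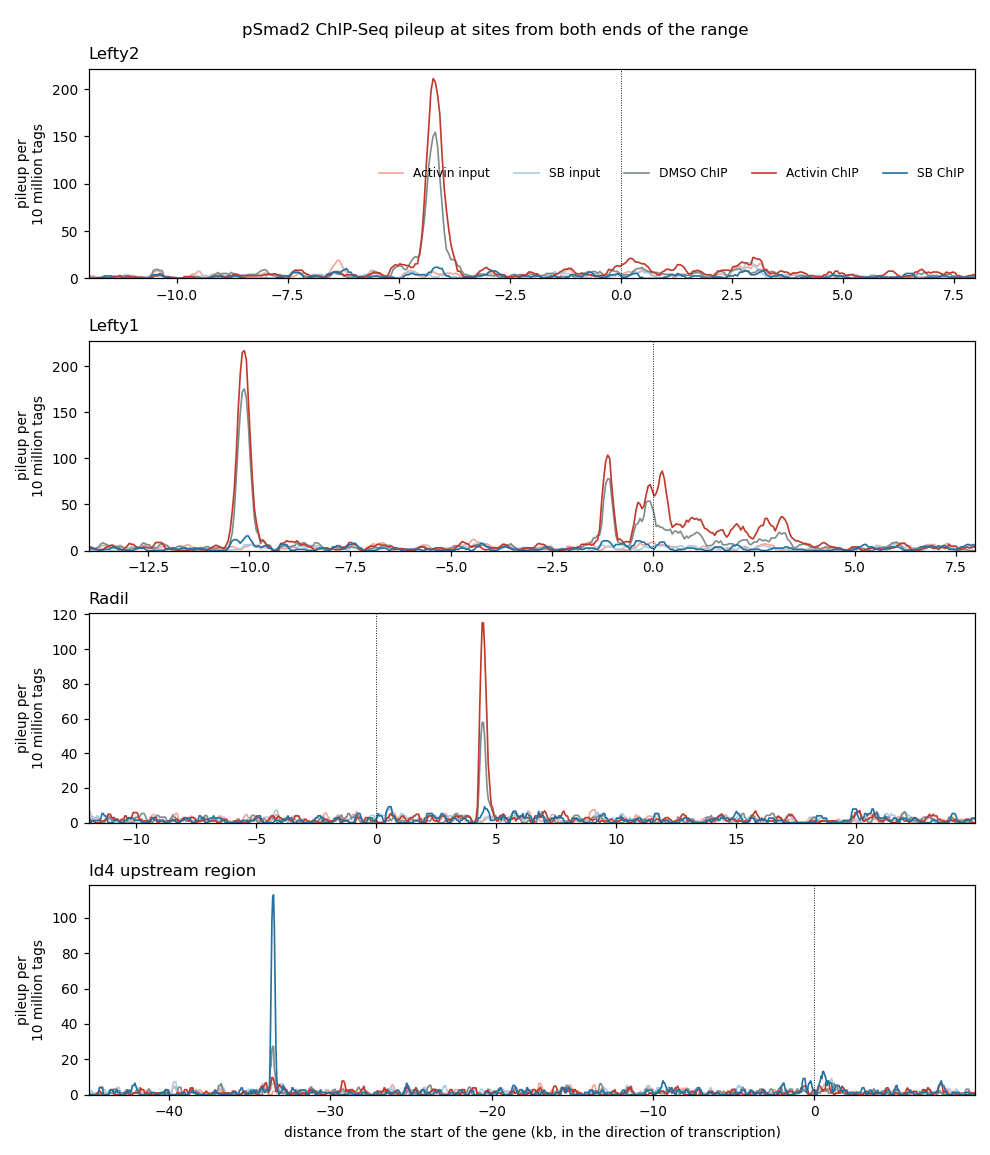
Pileup of tags extended to 200 bp and counted once per position and strand, per 10000000 tags outside regions (vertical axes), against the distance from the start of the gene in kb (horizontal axes; dotted line, gene start), for the Activin, DMSO and SB ChIP libraries and the Activin and SB inputs. The Lefty2, Lefty1 and Radil peaks are tallest in Activin, lower in DMSO and lowest of the ChIP libraries in SB, and the peak 33.5 kb upstream of Id4 is tall in SB.

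Further places of the Activin end were at genes less known for the pathway. In an intron of Radil (chr5:143022195-143023027), which encodes a protein that binds the small GTPase Rap, there were 168, 74 and 10 ChIP tags in Activin, DMSO and SB, a ratio of 12.4 (6.57 to 26.3). A place in overlapping introns of Ccrl1, a chemokine receptor-like gene, and Acad11, an acyl-CoA dehydrogenase gene (chr9:104020726-104021558), held 97, 34 and 6 tags, a ratio of 11.9 (5.28 to 33.3). Between these genes the middle level differed, since DMSO stood at 43.2% of the way from SB to Activin at Radil and at 32.4% at Ccrl1, against 66.7% at Lefty2.

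At 4 others of the 12 places there were between 36 and 113 tags in Activin. Of these, 3 lay more than 48 kb from a start site, and 1 lay in the introns of Lypla1 and Tcea1 and is named after Gm6104, the nearest start. Upstream of Pkdcc, a secreted kinase gene, 48.5 kb before its start, there were 113, 61 and 8 tags. Beyond Crisp4, 204.8 kb after its start, there were 44, 31 and 1 tags, a ratio of 32.4 with an interval from 5.53 to 1310. With 1 tag in SB at the places named after Crisp4, Gm6104 and Gm10335, these ratios rest on that 1 tag, and their intervals reached 1310, 1252 and 1077. All 12 places were called also when every tag was counted and when libraries were scaled by GC content, and at all 12 the DMSO level lay between those of Activin and SB.

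The 12 places of the SB end held between 11 and 100 tags in SB. The tallest place lay 33.5 kb upstream of Id4 (chr13:48322471-48323580), which encodes an inhibitor of basic helix-loop-helix factors and is a relative of the BMP targets Id1 to Id3. It held 24 tags with Activin, 35 with DMSO and 100 with SB, and 8, 6 and 18 in the inputs. SB was 5.65 times higher (3.59 to 9.23, adjusted p = 4.64e-15 by the exact binomial test) and 4.45 times higher (2.83 to 7.27) with the scaling by GC content. The inputs leaned the same way here, with an Activin to SB ratio of 0.399 (0.150 to 0.964). This lean was not particular to Id4. Over all SB-high regions the pooled input ratio was 0.840 (0.818 to 0.862), against 0.876 (0.868 to 0.884) over all regions.

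At start sites, Homer1, a synaptic scaffold gene (chr13:94073708-94074817), held 1, 9 and 23 ChIP tags in Activin, DMSO and SB. The SB level was 31.2 times higher, with an interval from 5.06 to 1285, and 11.8 times (1.92 to 486) with the scaling by GC content. Klf3, a Kruppel-like repressor (chr5:65195081-65196190), held 4, 18 and 28 tags, 9.49 times more in SB (3.32 to 37.2). Acsl3, a long-chain acyl-CoA synthetase gene, held 3, 14 and 28 tags, and the start of Ccdc92 held 2, 20 and 27. Dstyk, a protein kinase gene, had 3, 20 and 25 tags. At these 5 start sites DMSO lay between the others, from 39.5% of the way from SB to Activin at Dstyk to 70.97% at Homer1.

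Away from start sites, an exon of Spnb4, a beta-spectrin gene (chr7:28188928-28190037), held 6, 17 and 39 tags, with 8 tags in the Activin input and 23 in the SB input. Upstream of Prdm13, a PR-domain gene of neural development (chr4:21615348-21616457), there were 1, 6 and 19 tags. The places in an intron of Fam175b and near Kif4-ps and Lphn2, a latrophilin gene, held 13, 11 and 11 tags in SB and 0 in Activin. Taking 3 tags as the limit that a count of 0 allows, SB was at least 5.88-fold higher at the first and at least 4.97-fold higher at the other two. The 95% intervals, which also take in the counting error of the SB tags, began at 4.13 and 3.40. Mocs3, a molybdenum cofactor gene with 1, 4 and 17 tags, was the member of the 12 that was not called under the scaling by GC content.

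Ranked under the scaling by GC content, a choice made after the values were seen, 11 of the 12 Activin-end places stayed in the list, and a place 57.9 kb upstream of Chd6, a chromatin remodeller gene, entered with 91, 49 and 7 tags. At the SB end 5 of the 12 stayed, those at Fam175b, Lphn2, Kif4-ps, Klf3 and Id4. Among those that entered were an intron of Exoc4, an exocyst subunit gene, with 0, 13 and 10 tags, and a place upstream of Ranbp3l with 0, 1 and 10 tags. An intron of Smarcad1, a chromatin remodeller gene, held 3, 14 and 22 tags, 9.52 times more in SB (2.86 to 49.7) under this scaling. In this second list 1 of 12 places lay within 1 kb of a start site, against 6 of 12 before.

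**Figure D2:**
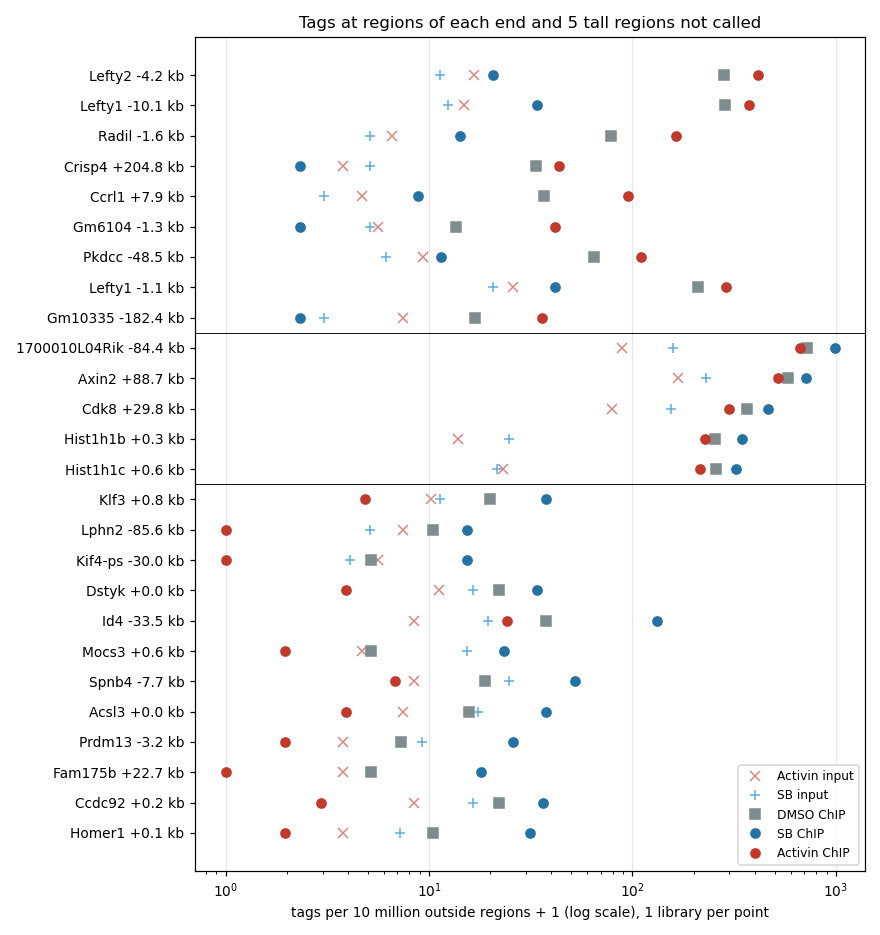
Levels at 9 of the 12 regions of the Activin end (top), 5 tall regions that were not called (middle) and the 12 regions of the SB end (bottom), as tags per 10000000 tags outside regions plus 1 on a log axis, with 1 point per library. Row labels give the gene with the nearest start site and the distance to it. DMSO lies between Activin and SB in all rows, and at the SB end the Activin level often lies below the input levels.

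The 5 regions with the most tags among those listed in both treatments and not called are given for comparison. An intron of Eftud1 (chr7:89919613-89920840) held 691 tags with Activin, 687 with DMSO and 751 with SB, and the SB level was 1.47 times the Activin level (1.33 to 1.64). At the place 88.7 kb from the start of Axin2 (chr11:108872651-108873760) there were 535, 550 and 542 tags, and a place in Cdk8 (chr5:147072260-147073369) held 307, 346 and 351. The inputs also were high there, with 95 to 222 tags at the first and second of these in the 3 input libraries. Counted with repeats, the Axin2 place held 14495 tags in Activin and 17142 in SB, so most of its tags lay on top of each other. The linker histone genes Hist1h1b and Hist1h1c had 234 and 222 tags in Activin and 264 and 245 in SB, with 14 to 24 tags in the inputs, and here the SB level was 1.53 (1.28 to 1.83) and 1.497 times higher (1.24 to 1.80). At Cdk8 every tag counted gave 4027 in Activin and 8150 in SB, a ratio of 0.360 that was called, while tags counted once gave 0.645. With tags counted once none of the 5 reached 2-fold, and all 5 leaned towards SB.

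Over all regions, 444 were higher in Activin (5.28% of 8402) and 917 were higher in SB (10.9%), so that 32.6% of the calls were on the Activin side. The median ratio of the Activin-high regions was 5.81, or 4.66 when the 56 regions without a tag in SB are set to the limit of 3 tags. In the SB-high regions SB was higher by a median of 3.01 times. Of the Activin-high regions, 430 were in the Activin list only and 14 in both lists. Of the SB-high ones, 838 were in the SB list only, 57 in both and 22 in the Activin list only. The lists were called from these libraries, so that the excess of each list in its own library is no independent result. The 22 regions listed in Activin but higher in SB were GC-rich, with a median of 60.98% GC, and 18 of them lay within 1 kb of a start site. With the scaling by GC content 4 of them were higher in SB. Their inputs leaned the same way, with a pooled Activin to SB ratio of 0.599 (0.503 to 0.712).

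GC content separated the ends. Its median was 45.1% in Activin-high regions (quartiles 41.9 and 49.1), 56.5% in SB-high regions (49.4 and 62.3) and 48.1% in those not called. Of the 273 regions with at least 65% GC, 150 were SB-high (54.9%) and 0 Activin-high. Of the 735 regions under 40% GC, 32 were SB-high (4.35%) and 60 Activin-high (8.16%). The same tilt was present outside the regions, where the Activin to SB ratio of the ChIP tags fell from 1.17 in windows of 25 to 27.5% GC to 0.219 in windows of 75 to 77.5% GC. It was present in the inputs too, where the ratio fell from 1.18 to 0.344 over the same windows.

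When each region was scaled by windows of its own GC content, 351 regions were higher in Activin (4.18%) and 314 in SB (3.74%), and the Activin side made up 52.8% of the calls. Of the 444 Activin-high regions 329 remained (74.1%), and of the 917 SB-high regions 310 (33.8%). The side with more calls thus depended on the scaling. Setting the median of the regions in both lists to 1, a choice made after seeing the values, gave 801 higher in Activin and 239 in SB.

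**Figure D3:**
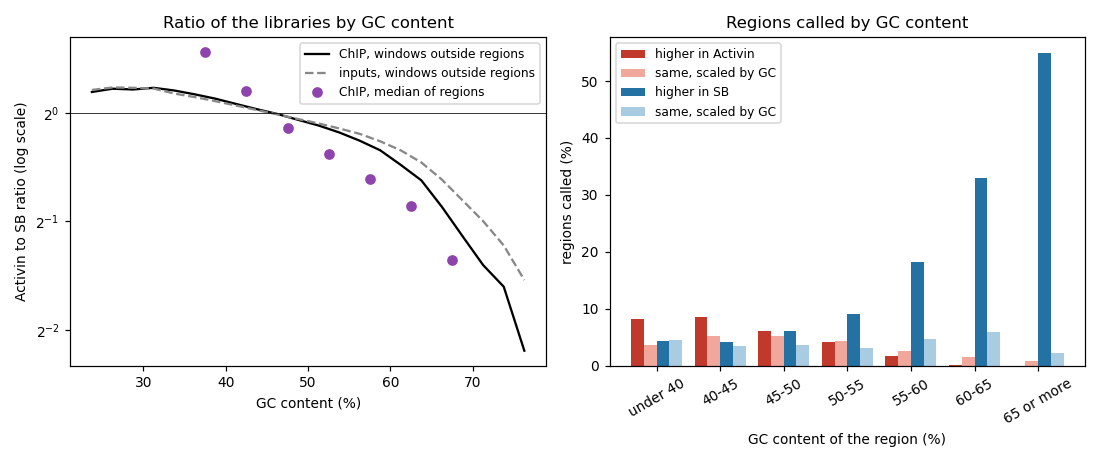
Left, Activin to SB ratio on a log axis against GC content in percent, for ChIP tags and input tags in windows outside regions (lines) and for the median of the regions (points; the lowest and highest class are open-ended). Right, percent of regions called in each GC class, scaled by all tags outside regions (dark bars) or by windows of the same GC content (light bars). SB-high calls rise to 54.9% in the GC-richest class and stay at a few percent with the scaling by GC content.

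The places of the calls differed as well. In the SB-high regions 50.8% (47.5 to 54.1) had their highest pileup within 1 kb of the start site of a coding gene, against 4.50% (2.77 to 6.87) of Activin-high regions and 21.9% of all regions. Under the scaling by GC content the SB share was 28.7% (23.7 to 34.0) and the Activin share 5.41% (3.29 to 8.32), so that the difference was smaller. Activin-high regions lay in introns in 43.2% (38.6 to 48.0) and farther than 10 kb from any coding gene in 35.4% (30.9 to 40.01), against 22.2% (19.6 to 25.1) and 6.00% (4.55 to 7.74) of SB-high regions. With the scaling by GC content the intron shares were 42.7% (37.498 to 48.1) in Activin-high and 37.9% (32.5 to 43.5) in SB-high regions, with overlapping intervals, and the far shares 33.3% (28.4 to 38.5) and 9.87% (6.81 to 13.7). The median distance to a start site was 25840 bp in Activin-high and 957 bp in SB-high regions, or 20539 and 7028 bp in the regions called with the scaling by GC content.

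Motifs were searched on both strands within 100 bp of the highest pileup, as letters only, and a match is not a bound site. TGTNNATT occurred in 43.2% (38.6 to 48.0) of the Activin-high windows, 5.13% (3.79 to 6.76) of the SB-high windows, 10.8% of those not called and 11.9% of all. CAGAC occurred in 62.4% (57.7 to 66.9), 38.8% (35.7 to 42.1), 46.4% and 46.4%. CAGA, which CAGAC contains, was in 96.4% and 87.6% of the windows at either end, and in 92.8% of all windows, so these letters alone distinguished little. The letters CATTGT of Sox factors were in 21.4% (17.7 to 25.5) of Activin-high and 7.20% (5.61 to 9.07) of SB-high windows. The octamer ATTTGCAT, bound by Oct4 in ES cells, was in 4.95% (3.13 to 7.41) and 0.327% (0.0675 to 0.953), against 1.21% of all windows. GGGCGG, the GC box, was in 5.41% (3.49 to 7.94) and 24.8% (22.0 to 27.7). TGANTCA of AP-1 was in 5.63% (3.68 to 8.20) and 2.84% (1.86 to 4.13), with overlapping intervals, against 5.14% of all windows.

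Since AT-rich letters are rarer in GC-rich DNA, windows of 40 to 50% GC were also taken alone. There TGTNNATT was in 108 of 239 Activin-high windows (45.2%, 38.8 to 51.7), 18 of 140 SB-high windows (12.9%, 7.80 to 19.6) and 16.8% of the windows not called. CAGAC was in 59.8% (53.3 to 66.1), 42.1% (33.9 to 50.8) and 45.02%. Both together were in 28.9% (23.2 to 35.1), 6.43% (2.98 to 11.9) and 8.01%. The Sox letters CATTGT were in 26.4% (20.9 to 32.4), 15.0% (9.53 to 22.0) and 14.3%. Their intervals overlapped between the Activin-high and SB-high windows, and the SB-high share was close to the uncalled share. With GC content held in this range, the FoxH1 and CAGAC letters were more frequent in the Activin-high windows still, with intervals that did not overlap those of the other windows.

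In the printed sequences the FoxH1 letters took few forms. Both matches at the Lefty2 site, both at the site 10.1 kb upstream of Lefty1 and the match upstream of Pkdcc read TGTGGATT on 1 of the strands, and all 4 at Ccrl1 read TGTGTATT. These forms were counted after the sequences were seen. TGTGGATT was in 18.9% (15.4 to 22.9) of Activin-high windows, 0.327% (0.0675 to 0.953) of SB-high windows, 1.35% of those not called and 2.17% of all. TGTGTATT was in 15.8% (12.5 to 19.5), 0.545% (0.177 to 1.27), 1.79% and 2.39%. In windows of 40 to 50% GC the former was in 16.3% (11.9 to 21.6) of Activin-high, 0.714% of SB-high and 1.65% of uncalled windows.

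In the Ccrl1 and Acad11 introns CAGAC came 6 times, 24 or 32 bp apart, and TGTGTATT began 5 bp after the first base of 4 of these copies. At Radil CAGAC came 2 times and TGTNNATT not at all. Over the 12 Activin-end windows, 9 held CAGAC, 9 held TGTNNATT and 6 held both, and over the 12 SB-end windows 6 held CAGAC, 1 held TGTNNATT and 0 held both.

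**Figure D4:**
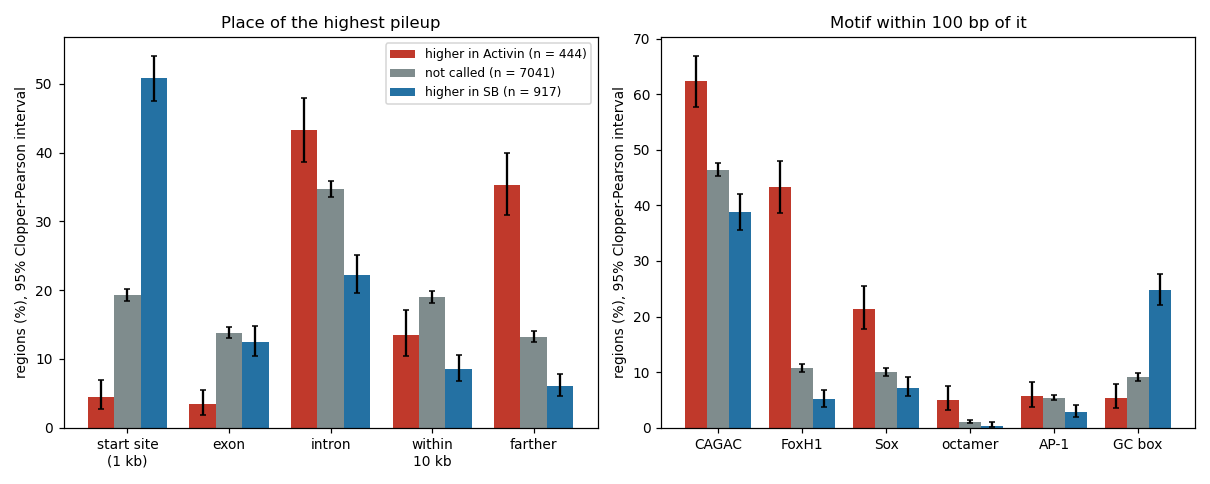
Percent of Activin-high, uncalled and SB-high regions (bars) by the place of the highest pileup (left) and with a motif within 100 bp of it on either strand (right), with error bars for the 95% Clopper-Pearson interval. Start sites and GC boxes are more frequent in SB-high regions, and places far from genes, CAGAC and the FoxH1, Sox and octamer letters in Activin-high regions. Introns are more frequent in Activin-high regions here, while the intervals overlap (42.7% and 37.9%) when regions are called with the scaling by GC content. In windows of 40 to 50% GC the intervals of the Sox letters overlap between Activin-high and SB-high regions.

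The DMSO library took no part in the choice of regions or calls. Its level lay between those of Activin and SB in 396 of the 444 Activin-high regions (89.2%) and 793 of the 917 SB-high regions (86.5%), and in 46.8% of those not called. Called regions were chosen for a wide gap between Activin and SB and the others for a narrow one, which by itself raises the first shares over the last, so that nothing is read from their difference. On a scale from SB at 0% to Activin at 100%, DMSO stood at a median of 49.4% in Activin-high regions (quartiles 30.8 and 70.4) and 70.6% in SB-high regions (51.9 and 89.0). In the median SB-high region the DMSO level was thus closer to Activin than to SB. A choice of regions by high tags in 1 library can by itself place DMSO nearer the other, so nothing is read from these positions. The median was 32.4% in regions of the Activin list only and 79.3% in those of the SB list only. In the regions called with the scaling by GC content, the medians were 51.6% and 70.2%, from levels not scaled by GC content.

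The ChIP tags at each end were also set against the input tags. In the Activin-high regions the Activin ChIP tags were 5.83 times the input tags (5.61 to 6.07), the DMSO tags 3.28 times (3.16 to 3.41) and the SB tags 1.11 times (1.05 to 1.17). In the SB-high regions the SB tags were 3.14 times the input (3.08 to 3.21), the DMSO tags 1.78 times (1.74 to 1.82) and the Activin tags 1.31 times (1.27 to 1.34). Among regions called with the scaling by GC content, SB was at 1.21 times (1.14 to 1.27) in the Activin-high ones. Activin was at 1.13 times (1.07 to 1.18) in the SB-high ones, so which lower library stood higher depended on the scaling. The lower library of each end was selected for being low, so that these values describe the regions and test nothing. In the regions of both lists the Activin ChIP tags were 3.30 times the input, the DMSO tags 3.25 times and the SB tags 3.60 times.

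The shape of the tags was read where a library had at least 10 tags on each strand. ChIP fragments around a bound place put plus-strand tags before it and minus-strand tags after it. The median offset between the strands was 143 bp in the Activin library over 229 Activin-high regions and 99.0 bp over 1407 uncalled regions. In the SB library it was 113.5 bp over 274 SB-high regions and 88.0 bp over 1053 uncalled ones. At the tall shared places of Eftud1 and Axin2 it was between 26.5 and 34.5 bp. The other tall shared places varied, with 65.5 bp in Activin and 26 bp in SB at Cdk8. At Hist1h1b the offsets were 96.5 and 124 bp, and at Hist1h1c 79 and 4.5 bp. Among called sites it was 147 bp at Lefty2 and 174 bp at Radil in Activin, and 168 bp at Id4 in SB.

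**Figure D5:**
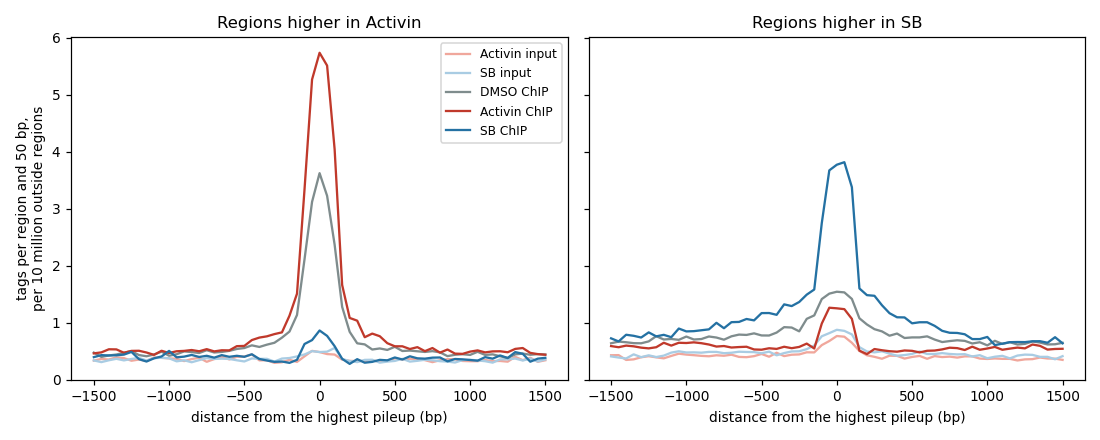
Mean tags per region and 50 bp, per 10000000 tags outside regions, against the distance in bp from the highest pileup, for regions higher in Activin (left, n = 444) and higher in SB (right, n = 917), in 3 ChIP and 2 input libraries. At the highest pileup the Activin-high regions reach 5.73 for Activin and 3.62 for DMSO. The SB library stands at 0.864 there, beside 0.485 for the SB input. The SB-high regions reach 3.77 for SB, 1.54 for DMSO and 1.252 for Activin. The highest pileup was chosen from the Activin and SB ChIP tags together, which by itself raises both libraries at that point. DMSO and input tags took no part in that choice. Nothing is therefore read from the height of the lower library over its input.

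Named genes were read through the regions within 10 kb of them. Of 22208 coding gene symbols, 6285 had a region in this distance, of which 341 had an Activin-high region (5.43%), 1363 an SB-high region (21.7%) and 29 both. With the scaling by GC content these were 280 (4.46%) and 421 (6.7%). The median ratio of the tallest region was 0.737 over all these genes. The 6285 genes had 7280 regions between them. A gene was counted if any of its regions was called, so a gene with more regions had more chances of a call. The counts in the lists below were not tested.

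In the Nodal and Activin pathway, 19 of 28 genes had a region, and 7 of these had an Activin-high and 1 an SB-high region. Of all genes with a region, 5.43% and 21.7% had one. The 19 genes had 52 regions, and the median ratio of the tallest region was 1.47. The same 7 of 19 stood under the scaling by GC content, beside 4.46% of all, and 0 were higher in SB, beside 6.7%. Beside both Lefty genes these were Nodal, its coreceptor gene Tdgf1, and the feedback inhibitors Smad7, Pmepa1 and Ski. An intronic site of Nodal (chr10:60881611-60883533) held 180 tags with Activin, 109 with DMSO and 56 with SB, a ratio of 2.37 (1.75 to 3.26). A site 1.5 kb upstream of Nodal had 45, 24 and 10 tags, a ratio of 3.32 (1.65 to 7.38). The interval at the Nodal intron lay below those of the 3 Lefty sites, and Nodal kept 56 tags in SB against 20 in the SB input.

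Tdgf1, which encodes Cripto, had 126, 89 and 26 tags at 1.4 kb upstream of its start (chr9:110849691-110850837), a ratio of 3.57 (2.33 to 5.68). A second Tdgf1 site, 3.8 kb after the start, had 38, 26 and 6 tags. In an intron of Ski, a repressor of Smad-driven transcription (chr4:154563472-154564581), there were 265, 173 and 39 tags, a ratio of 5.01 (3.57 to 7.20). Pmepa1, which binds receptor-regulated Smads, had 49, 40 and 9 tags, a ratio of 4.02 (1.95 to 9.30), and Smad7, 6.5 kb upstream, 93, 66 and 11 tags, a ratio of 6.23 (3.33 to 12.9). All of these followed the order Activin, DMSO, SB.

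The other 11 pathway genes with a region were not called, and 3 of them are given as examples chosen after their values were seen. At Tgif1, a corepressor gene, there were 46, 53 and 33 tags, a ratio of 1.03 (0.643 to 1.66), and at Skil, a relative of Ski, 31, 38 and 15, a ratio of 1.52 (0.798 to 3.04). The antagonist gene Fst had 15, 4 and 3 tags, a ratio of 3.69 (1.04 to 19.9), which was not called. Gdf1, a ligand gene, was higher in SB with 81, 101 and 123 tags, 2.06 times (1.54 to 2.76), in a region of 66.6% GC, and was at 1.13 times (0.846 to 1.51) with the scaling by GC content.

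Of the mesendoderm genes, 5 of 14 had a region, 1 an Activin-high and 2 an SB-high one, against 2 and 0 with the scaling by GC content. Of all genes with a region these were 5.43% and 21.7%, or 4.46% and 6.7% with that scaling. Foxa2, a forkhead gene of endoderm, held 3, 12 and 12 tags at 6.3 kb upstream, 5.42 times more in SB (1.46 to 29.9), and was not called with the scaling by GC content. Fgf8, a growth factor gene of gastrulation, had regions that leaned either way within 10 kb, of which each scaling called 1. At 3.3 kb upstream there were 44, 25 and 16 tags, a ratio of 2.03 (1.12 to 3.85) that was not called, or 2.30 (1.27 to 4.36) and called with the scaling by GC content. At 6.3 kb upstream there were 12, 23 and 34 tags, 3.84 times more in SB (1.94 to 8.15), or 2.497 times (1.26 to 5.30) and not called with the scaling by GC content. Otx2 (38, 48 and 33 tags) and Wnt3 (24, 20 and 6) were not called. Of the 14 trophectoderm genes, 1 had a region within 10 kb. This was Tcfap2c, an AP-2 transcription factor gene, with 14, 10 and 19 tags, a ratio of 0.543 (0.252 to 1.14) that was not called.

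Of the BMP pathway and Id genes, 6 of 16 had a region, 4 of these SB-high and 0 Activin-high, beside 21.7% SB-high and 5.43% Activin-high of all genes with a region. With the scaling by GC content 2 were SB-high, beside 6.7% of all. The median ratio of their tallest regions was 0.332, against 0.737 over all genes, which leaned to SB as well. Id proteins hold back basic helix-loop-helix factors, and Id genes are classic targets of BMP signaling through other Smads. Id2 had 24 tags with Activin, 14 with DMSO and 55 with SB at 2.9 kb upstream (chr12:25783117-25784226), 3.11 times more in SB (1.89 to 5.25) and 2.45 times (1.49 to 4.14) with the scaling by GC content. A second Id2 site, 5.0 kb upstream, had 7, 9 and 22 tags, 4.26 times more in SB (1.76 to 11.8). Id3 (chr4:135700042-135701151) had 16, 18 and 48 tags in an intron, 4.07 times more in SB (2.27 to 7.68) and 2.92 times (1.63 to 5.51) with that scaling.

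At the Id2 and Id3 sites the SB library stood apart from both others, since Activin and DMSO held at most 24 tags. Id1 leaned the same way without being called, with 22, 20 and 32 tags, a ratio of 0.507 (0.281 to 0.900). The receptor genes Bmpr1a and Bmpr2 each had 9 tags in Activin and 20 in SB at regions of 71.1% and 71.2% GC, 3.01 times more in SB (1.31 to 7.52), and both were at 1.14 times (0.496 to 2.84) with the scaling by GC content.

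Pluripotency genes had calls on both sides, with 14 of 20 having a region, 4 Activin-high, 5 SB-high and 1 of these both. With the scaling by GC content these were 3 and 3. Over all genes with a region the shares were 5.43% and 21.7%, or 4.46% and 6.7% with that scaling. The 14 genes had 62 regions. Pou5f1, which encodes Oct4, had 48, 35 and 14 tags at 2.03 kb upstream (chr17:35640532-35641364), a ratio of 2.53 (1.37 to 4.97). Nanog had 24, 19 and 4 tags at 4.9 kb upstream, a ratio of 4.42 (1.52 to 17.5), and its tallest region, with 51, 49 and 26 tags, was not called. An intron of Esrrb, an orphan nuclear receptor gene, had 71, 60 and 14 tags, a ratio of 3.74 (2.09 to 7.18), while its tallest region had 73, 79 and 69.

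On the SB side, Klf2, a Kruppel-like factor, had 52, 62 and 114 tags at its start (chr8:74842891-74843723), 2.97 times more in SB (2.12 to 4.21) at 69.5% GC, and 1.35 times (0.966 to 1.92) with the scaling by GC content. A second Klf2 region in an exon had 51, 76 and 89 tags, 2.37 times more in SB (1.66 to 3.41), and was called under both scalings. Zfp42, known as Rex1, had 22, 38 and 36 tags, 2.22 times more in SB (1.27 to 3.96). Fgf4 and Nr0b1 had 13, 22 and 25 and 11, 28 and 23 tags, and neither was called with the scaling by GC content. Tet1, a methylcytosine dioxygenase gene, had an Activin-high region at its start (30, 20 and 7 tags, a ratio of 3.16, 1.36 to 8.52), not called with the scaling by GC content, and an SB-high one in an intron (11, 13 and 28 tags, 3.45 times more in SB, 1.67 to 7.68).

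A further list held 21 genes, drawn mostly from those that the study names for binding or expression. It is not complete, since it left out Ski, Skil, Pmepa1 and Foxh1, which the study also names for binding. Of the 21 genes, 20 had a region within 10 kb, 13 an Activin-high and 4 an SB-high one, with a median ratio of 3.05. With the scaling by GC content these were 16 and 2. The shares over all genes with a region were 5.43% and 21.7%, or 4.46% and 6.7% with that scaling, and the 20 genes had 57 regions. The main text of the study names these genes, apart from Hoxb4 and Epha2, for expression under the same treatments or binding in these libraries. Their direction is therefore no independent evidence. Introns of Bcar3, an adaptor gene, and of Nphs1, the nephrin gene, had 84, 55 and 8 tags (a ratio of 7.74, 3.75 to 18.5) and 128, 82 and 16 tags (5.90, 3.50 to 10.6). Copz2, a coat protein gene, had 31, 26 and 6 tags, a ratio of 3.81 (1.57 to 11.2). The site counted for Tmem63a was that of Lefty1, 8.4 kb away. At 2210011C24Rik, a region 2.9 kb after the start was higher in Activin (73, 24 and 16 tags, a ratio of 3.36, 1.94 to 6.19) and a region at 9.7 kb was higher in SB (23, 24 and 41 tags, 2.42 times, 1.42 to 4.22), the latter not called with the scaling by GC content.

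The tallest regions of Hoxb4 and Epha2 were not called. Hoxb4 had 23, 7 and 17, a ratio of 0.998 (0.510 to 1.99). Epha2, an ephrin receptor gene, had 56, 53 and 30, a ratio of 1.38 (0.868 to 2.22), and 2.12 (1.34 to 3.42) with the scaling by GC content, which was called. The call at Epha2 thus depended on the scaling.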

How the data were processed

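pSmad2 ChIP-Seq was done on E14 TG2A cells with a rabbit antibody to phosphorylated Smad2. The deposited files hold, per library, the position and strand of every aligned tag of 35 bases on mm9, and, for each ChIP, a list of peaks that the authors called against the matching input, each with its position and tag count. Sources used here name no aligner. The DMSO peak list was not used, and the peak scores were neither printed nor tested.

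Each tag was placed 100 bp inward from its 5′ end and counted in the 8402 merged regions, either once per position and strand or every time. Activin and SB counts were compared by a two-sided exact binomial test, given the tags of each library outside the regions, with Benjamini-Hochberg adjustment over all regions. A call needed an adjusted p under 0.05 and a fold of at least 2. Intervals are 95% Clopper-Pearson intervals. They cover counting error only, because each condition has 1 library and PCR copies are not independent molecules. A count of 0 was taken to allow up to 3 tags. To scale by GC content, windows outside the regions gave the ratio of the libraries in steps of 2.5% GC, which was divided out. The highest pileup of a region was that of the Activin and SB ChIP tags together, each extended to 200 bp. Genes, start sites and sequence came from the coding genes of GENCODE vM1 and the matching mm9 genome. Start sites are those of coding transcripts, and a gene's distance to a region is from its nearest edge.

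Named places were the 12 called regions at either end of the range, ranked by the interval bound nearest to 1, and the 5 regions of both lists with most tags that were not called. Named genes were list members with a called region within 10 kb, and for the list of 21 genes drawn mostly from the study also the tallest region. AP-2 genes were matched by the older symbols of the annotation. Some named places and genes are not reported here. The members and gene lists were chosen with earlier results of these data known. Alternatives were all tags, other scalings, the central part of each interval, other thresholds and filters, and unmoved tags. Scripts used Python 3.11.15, NumPy 2.4.6, SciPy 1.17.1, pandas 2.3.3 and Matplotlib 3.10.9, and the test was tried on simulated data.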

Additional observations from a re-analysis of the deposited data

How the results depend on the processing

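No paired analysis was possible because each group has 1 sample. Of 174 values at 29 named places under 6 alternatives, 171 kept their direction and side of the threshold, 2 were no longer called (Mocs3 with the scaling by GC content and Fam175b in the central part of the interval), 1 became called (Cdk8 with every tag counted) and 0 reversed. Most of the named places were picked as the called regions with intervals farthest from 1, so their calls were likely to stay. These values therefore do not show how stable other calls were. Of all calls, 329 of 444 Activin-high and 310 of 917 SB-high regions stayed called with the scaling by GC content. The count of regions higher in Activin, 444, was 805 with every tag counted and 737 with every tag counted and the scaling by GC content. The count higher in SB, 917, was 314 with the scaling by GC content and 523 in the central part of each interval. An adjusted p under 0.001 left 93 and 108. Setting the median of the regions in both lists to 1 gave 801 and 239, with 77.0% of the calls on the Activin side. It moved the median log2 ratio of all regions by 0.38, and the scaling by GC content by 0.15. The settings that use the regions of both lists, the stacked tags, or every tag together with GC content, and the shares under GC scaling, were chosen after seeing the data. The input libraries differed at 16 regions with every tag counted, against 7, and at 494 at an unadjusted p under 0.05. Within 50 kb, 759 genes had an Activin-high and 2750 an SB-high region. With the scaling by GC content, 28.7% of the SB-high regions lay at start sites and 42.7% held CAGAC. Scaling by total tags, no fold limit, at least 20 tags, leaving out places of high input or of stacked tags, and unmoved tags kept both counts within 1.5 times. Regions with few tags limit what can be called.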

Other observations

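A few places held tags piled on the same position. In 64 of the 8402 regions either ChIP library had at least 5 tags per position and strand, and these regions held 40.6% of all Activin and 55.5% of all SB tags inside regions. With tags counted once, 6 of the 64 were called, and with every tag counted 24.

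The tallest places of the Activin end also had repeated tags, at a lower rate. Lefty2 held 1.63 tags per position and strand in Activin and Lefty1 at 10.1 kb 1.77, against 27.1 at the place near Axin2.

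At the upstream Lefty sites, the middle of the nearest TGTGGATT match lay 4 bp (Lefty2) and 2 bp (Lefty1 at 10.1 kb) from the highest pileup, and at Pkdcc 8 bp. Not all matches were this close. At the place named after Gm10335 the TGTGGATT match lay at -42 bp. The nearest TGTGTATT match lay at 62 bp at Crisp4, -17 bp at Gm6104 and -7 bp at Ccrl1.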
